A study of Mus musculus with 6 samples.

Results

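The histone genes of this dataset are the clustered genes for the core histones H2A, H2B, H3 and H4 and the genes for the linker histone H1. A gene was a member where the array annotation gave its row a single symbol starting with Hist1h, Hist2h, Hist3h, Hist4h, H1f, H2ac, H2bc, H3c or H4c, and a pseudogene was left out. This rule took 30 of 30098 genes with a row of their own, namely 8 genes of H1, 9 of H2A, 8 of H2B, 3 of H3 and 2 of H4. By the RefSeq annotation 21 of them lie on chromosome 13, 6 on chromosome 3, 2 on chromosome 6 and 1 on chromosome 15. Each gene is shown by its brightest row, and only H4c2 had another. The linker histone genes H1f0 and H1f4 had no single-symbol row and were not analysed here.

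The samples were aggregates of R1 cells, an established line of mouse embryonic stem cells, grown inside microcapsules with an alginate hydrogel shell. The "before" group held 3 arrays of aggregates grown over 7 days in embryonic stem cell medium, which contained Knockout serum and leukaemia inhibitory factor. For the "after" group, also 3 arrays, 3 more days followed in regular DMEM to which BMP-4 and bFGF were added, the pre-differentiation step meant to lead the cells towards an early cardiac stage. Neither Knockout serum nor leukaemia inhibitory factor is listed for that step, so the effects of the factors, the medium and the added days cannot be told apart. All 6 samples are labelled as biological replicates, and neither the labels nor the methods say, for the arrays, whether the cultures were separate, so p-values measure the spread between these samples only. Total RNA of whole aggregates was hybridised to Clariom D arrays, and in such bulk RNA fewer cells of a type and less RNA per cell cannot be told apart. Signals are on the log2 scale as deposited, so that a difference of 1 is a 2-fold difference.

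Core histones form the protein spool of the nucleosome, and H1 binds the DNA that enters and leaves it. Most genes of both kinds sit in clusters, the core histone genes as many near-identical copies, and are transcribed in S phase, when new DNA has to be packaged. Their messenger RNAs end in a stem-loop rather than a poly(A) tail, and the stem-loop binding protein Slbp is needed to process them. A few members belong to other settings: H2ac1 and H2bc1 encode the testis variants TH2A and TH2B, which are also present in oocytes and early embryos, H1f6 and H1f7 encode linker histones of the male germ line, and H1f8 encodes that of the oocyte. The coding copies of a core histone type are so alike that a probe can bind RNA of more than 1 of them. A value given under 1 symbol may thus hold signal of its neighbours.

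Promoters of clustered histone genes are known for a small set of short elements, and 5 are shown: those of the genes with the lowest and the highest change (H2ac1, H2bc1 beside it, and H1f2), of the lowest H1 gene (H1f1), and of an H2B and an H3 gene whose groups were apart (H2bc14 and H3c3). The sequences are the 250 bases before the annotated start, from RefSeq on build GRCm38.p6, written 5′ to 3′ along the gene's own strand. Capitals mark matches, on either strand, to the octamer ATTTGCAT of H2B promoters, to CCAAT, to TATAAA and to the H1 box AAACACA. No match to one of these overlapped a match to another in any member.
H2ac1: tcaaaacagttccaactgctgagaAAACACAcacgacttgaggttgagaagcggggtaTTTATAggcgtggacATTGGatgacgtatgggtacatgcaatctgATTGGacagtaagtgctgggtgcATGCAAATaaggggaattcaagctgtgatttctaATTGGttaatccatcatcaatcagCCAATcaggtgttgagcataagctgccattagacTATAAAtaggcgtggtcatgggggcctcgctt
H2bc14: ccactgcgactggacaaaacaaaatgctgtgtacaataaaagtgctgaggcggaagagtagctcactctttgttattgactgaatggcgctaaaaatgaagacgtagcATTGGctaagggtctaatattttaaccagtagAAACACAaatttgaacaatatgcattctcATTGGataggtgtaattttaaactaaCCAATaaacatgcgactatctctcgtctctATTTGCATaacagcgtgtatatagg
H1f1: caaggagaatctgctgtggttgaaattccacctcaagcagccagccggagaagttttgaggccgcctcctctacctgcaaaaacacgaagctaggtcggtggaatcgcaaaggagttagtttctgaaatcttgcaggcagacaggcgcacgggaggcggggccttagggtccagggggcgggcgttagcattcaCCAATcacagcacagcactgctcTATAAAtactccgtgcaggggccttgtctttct
H1f2: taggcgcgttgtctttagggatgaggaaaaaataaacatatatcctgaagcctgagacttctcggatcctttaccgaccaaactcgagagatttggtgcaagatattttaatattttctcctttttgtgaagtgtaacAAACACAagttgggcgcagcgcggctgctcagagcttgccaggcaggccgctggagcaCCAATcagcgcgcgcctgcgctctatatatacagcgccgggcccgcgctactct
H3c3: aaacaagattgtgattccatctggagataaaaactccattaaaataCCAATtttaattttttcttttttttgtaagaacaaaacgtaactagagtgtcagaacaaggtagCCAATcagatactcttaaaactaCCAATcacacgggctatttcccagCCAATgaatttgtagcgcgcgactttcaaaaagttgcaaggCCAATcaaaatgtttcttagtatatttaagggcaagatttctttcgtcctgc
The H2ac1 stretch (chr13:23934187-23934436, plus strand) lies between the starts of H2ac1 and H2bc1, which are 281 bases apart on opposite strands, so both testis variants share it. The others are chr13:21721794-21722043 for H2bc14, chr13:23763418-23763667 for H1f1 and chr13:23738557-23738806 for H1f2, all on the plus strand, and chr13:23745522-23745771 on the minus strand for H3c3.

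A promoter was found for 28 of the 30 genes. The octamer was present in 5 of 7 H2B promoters, in 3 of 9 H2A promoters and in 0 of the H1, H3 and H4 promoters, against 1.6% of all 32851 promoters in the table. H2ac12 and H2bc12, whose starts are 178 bases apart on opposite strands, make up another shared promoter with the octamer. CCAAT was present in 89.3% of the histone promoters and in 33.8% of all promoters. TATAAA was present in 35.7% against 12.4%. The H1 box was present in 4 of 8 H1 promoters, H1f2 among them but not H1f1. It was also present in 1 of 9 H2A and 2 of 7 H2B promoters, in 0 of the H3 and H4 promoters, and in 6.25% of all promoters. These matches describe the letters and were not read as bound sites. The 8 genes with an octamer had a median log2 change of -1.0 (range -3.42 to -0.28) and the 20 without one had a median of -0.63 (range -1.57 to 1.14), with no test made between them. The 20 include all 8 H1 genes, whose median was -0.18, so this split is also partly one by histone type.

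The arrays within a group were not alike, which touches every value below. After replicate 1 kept a mean signal of 12.78 over 10 naive pluripotency genes, close to the 13.14 to 13.87 of the before arrays. After replicates 2 and 3 read 6.80 and 7.48. Klf4 alone of the 10 had a higher mean after, with a log2 change of 0.49 (SE 0.35). Over 10 parietal endoderm genes all 3 after arrays were high, at 13.53, 14.04 and 14.91, against 8.74 to 9.48 before. Over 8 visceral endoderm genes the before arrays read 5.72 to 6.32 and the after arrays 10.05, 12.96 and 11.06, and over 7 mesenchyme and fibroblast genes 4.52 to 4.57 and 6.34, 13.34 and 9.68. The mean over 6 endothelial genes was 5.55 to 5.61 before and 6.63 to 7.50 after. These 6 went different ways, 4 higher and 2 lower, with log2 changes from -2.88 to 6.56. Cardiomyocyte genes stayed near the background level of 4.24 on most arrays, with means of 4.68 to 4.74 before and 4.69, 6.44 and 4.95 after. The main counts below are therefore given with and without after replicate 1. That array was singled out after its values were seen. Fits without it rest on after replicates 2 and 3 alone in that group. Their standard errors and p-values hold only given that choice. The part of cell composition in the histone values was not tested.

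Of the 30 histone genes, 28 passed the background level in at least 1 group mean, the exceptions being the germ-line linker genes H1f7 and H1f8. In the limma fit to all 6 arrays, 0 of 30 were called higher and 0 lower in the after group (threshold 0.05 on the adjusted p), where 1.23% of all genes were higher and 0.651% lower. Unadjusted (p under 0.05), 0 were higher and 11 were lower, beside 11.0% and 19.7% of all genes. The test named in the methods called 0 after adjustment and, unadjusted, 2 lower, H3c7 and H4c1, where it called 18.4% of all genes lower. The mean was lower after than before for 27 of 30 genes, against 68.3% of all genes (26 of 30 without after replicate 1), and the median log2 change was -0.83 for the histone genes and -0.16 for all genes. For 6 of 30 genes all after arrays were lower than all before arrays, a share under the 28.2% of all genes, and for 0 of 30 they were all higher, against 11.8%. These were H3c3, H3c7, H3c8, H4c1, H4c2 and H2bc14.

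**Figure D1:**
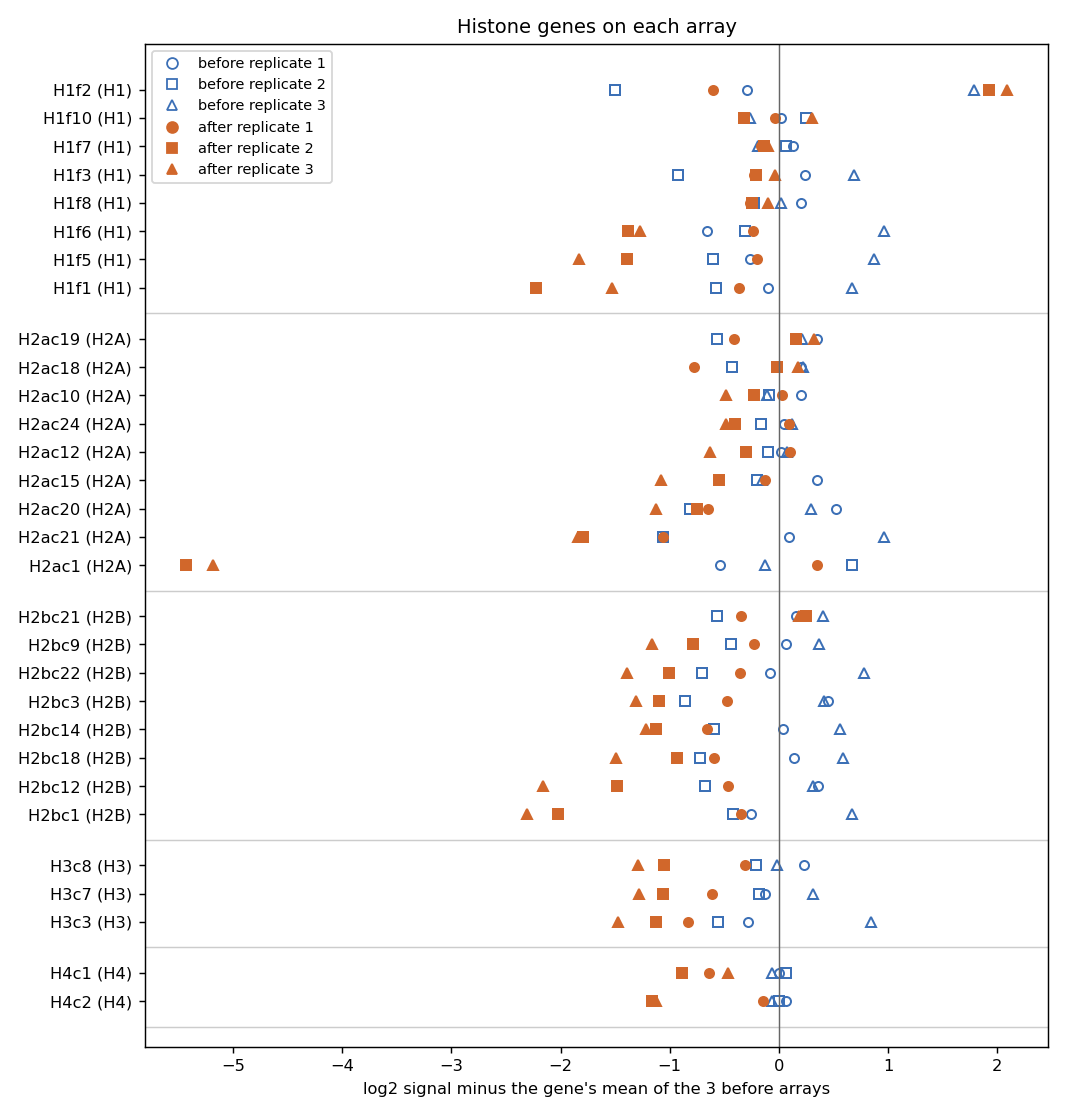
Signal of each of the 30 histone genes on each array, as the log2 difference from that gene's mean over the 3 before arrays (x axis), with genes grouped by histone type. Open blue symbols are before arrays, filled orange symbols are after arrays, and the shape gives the replicate number. After replicate 1 (circles) lies among the before arrays for 21 genes (40.3% of all genes on the arrays), and after replicates 2 and 3 lie below all before arrays for 21 genes (42.3% of all genes).

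Leaving out after replicate 1, the limma fit called 5 of 30 histone genes lower and 0 higher, where it called 7.49% of all genes lower and 7.81% higher. The 5 were the testis variants H2ac1 and H2bc1, the H3 genes H3c7 and H3c8, and the H4 gene H4c2. At an unadjusted p under 0.05 there were 20 lower, against 21.3% of all genes. Of the 28 histone genes above background, this fit called 5 lower and 0 higher, and 20 were lower unadjusted. Among all 19841 genes above background it called 2237 lower and 2341 higher, and 5694 were lower unadjusted. After replicates 2 and 3 lay below all before arrays for 21 of 30 histone genes, against 42.3% of all genes, and above them for 1, H1f2, against 19.4%. The median log2 change was then -1.06, against -0.18 for all genes. The plot of signals by array shows this split gene by gene.

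The other unlike array was before replicate 2. It was the lowest before array for 23 of 30 histone genes (44.0% of all genes), among them all 8 H2B and all 3 H3 genes, and before replicate 3 was the highest for 17 (50.2%). The median difference from the before mean over the histone genes was 0.07, -0.43 and 0.31 on the before arrays and -0.35, -0.91 and -1.15 on the after arrays. The spread among before arrays was thus a large part of the change for many genes. Without before replicate 2 the median log2 change of the histone genes was -0.97 and 0 of 30 were called, beside 0.336% of all genes higher and 0.219% lower.

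By histone type, the median log2 change was -0.18 for H1, -0.28 for H2A, -0.98 for H2B, -0.99 for H3 and -0.74 for H4, each beside -0.16 for all genes. For the 22 core histone genes together it was -0.86, and -1.16 without after replicate 1. Centring every array on its median moved the median of all genes to 0.02, that of H1 to 0.0003, that of H2A to -0.09, that of H2B to -0.80, that of H3 to -0.80 and that of H4 to -0.55. No test was made between types. The 21 genes on chromosome 13 had a median of -0.92 and the 6 on chromosome 3 a median of -0.53.

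**Figure D2:**
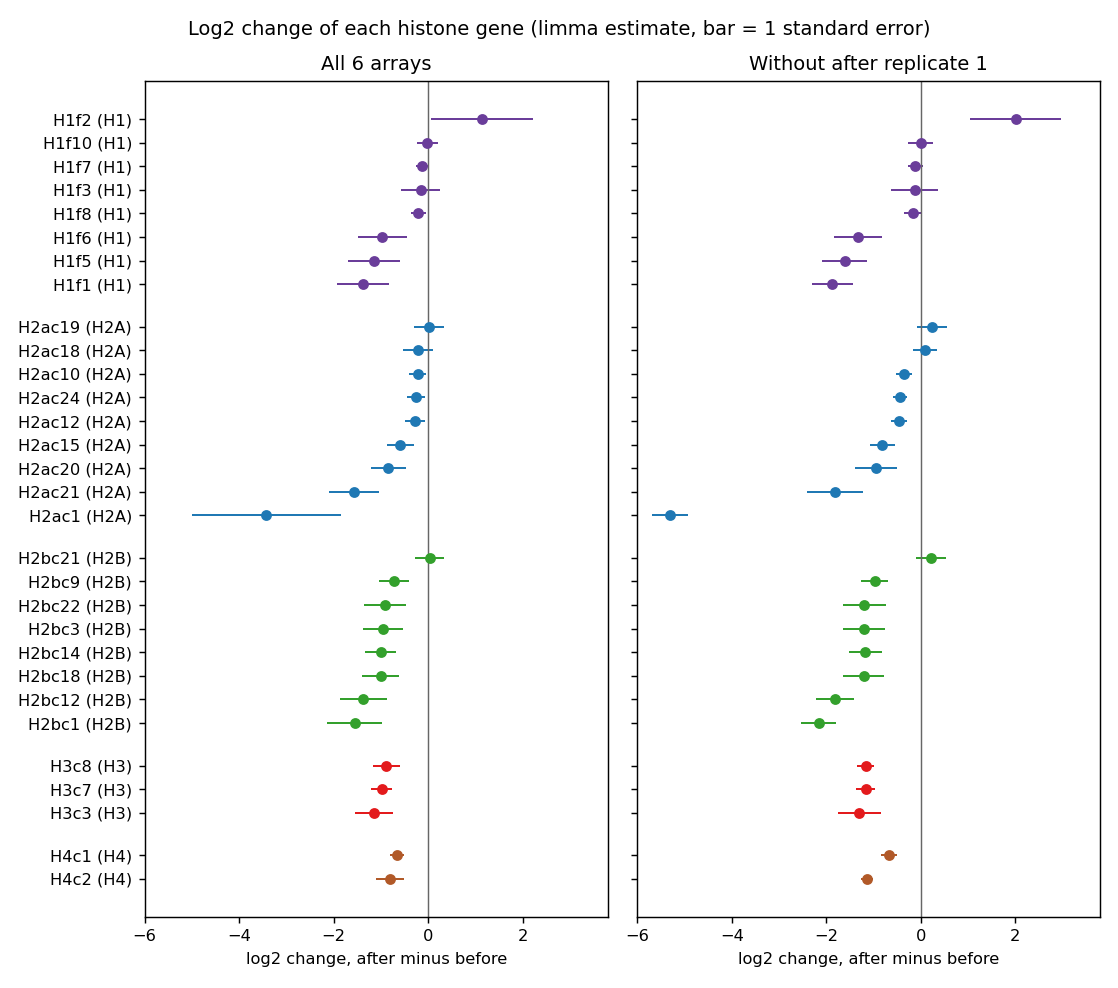
Log2 change of each histone gene, after minus before (x axis), from limma with all 6 arrays (left) and without after replicate 1 (right), points being estimates and bars 1 standard error. The H2B, H3 and H4 genes other than H2bc21 lie to the left of 0 in both panels, and the bar of H2ac1 shrinks from 1.58 to 0.38 when after replicate 1 is left out.

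Among the linker histones, the 8 genes went different ways and none passed the test. The lowest change was that of H1f1, which encodes the somatic variant H1a. Its signals were 7.55, 7.07 and 8.32 before and 7.29, 5.42 and 6.12 after. After replicates 2 and 3 were below all before arrays, and after replicate 1 lay within them. The log2 change was -1.37 (SE 0.55, n = 3 and 3, limma adjusted p = 0.195, exact permutation p = 0.2), and -1.88 (SE 0.43, adjusted p = 0.0644) without after replicate 1. The exact permutation test, two-sided here and elsewhere, cannot go below 0.1 with 3 arrays against 3.

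H1f5, which encodes the somatic variant H1b, read 10.64, 10.30 and 11.78 before and 10.70, 9.51 and 9.08 after. The same arrays were low as for H1f1, and after replicate 1 again fell inside the before range. Its log2 change was -1.14 (SE 0.55, adjusted p = 0.254 by limma), and -1.61 (SE 0.48, adjusted p = 0.112) without that array. H1f6, the male germ-line H1t, read 3.88, 4.23 and 5.50 before and 4.30, 3.16 and 3.26 after. Only before replicate 3 and, barely, after replicate 1 stood above the background level, so its log2 change of -0.97 (SE 0.51) rests on dim signals.

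H1f2, which encodes the somatic variant H1c, had the highest change of all 30 genes. It read 8.48, 7.27 and 10.56 before and 8.17, 10.69 and 10.86 after. Before replicate 3 was close to the 2 high after arrays and after replicate 1 was among the low before arrays, so the groups overlapped. The log2 change was 1.14 (SE 1.07, 95% interval -1.50 to 3.78, limma adjusted p = 0.517), and 2.01 (SE 0.97, adjusted p = 0.256) without after replicate 1. Over the 6 fits that each left out 1 array it ran from 0.39, without before replicate 2, to 2.03, without before replicate 3. H1f2 was the single histone gene for which after replicates 2 and 3 both lay above all before arrays.

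The other 4 linker genes gave small differences, and for 3 of them the sign was not stable. H1f3, the somatic variant H1d, changed sign from -0.16 (SE 0.41) to 0.023 when arrays were centred on their medians, H1f10, the variant H1X, from -0.02 (SE 0.22) to 0.17, and H1f7 from -0.13 (SE 0.13) to 0.049. H1f8, the oocyte variant, read -0.20 (SE 0.15), at signals between 3.44 and 3.91 that were all below the background level. For H1f3 the before arrays ranged from 4.88 to 6.50 while the after arrays stayed between 5.58 and 5.77.

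**Figure D3:**
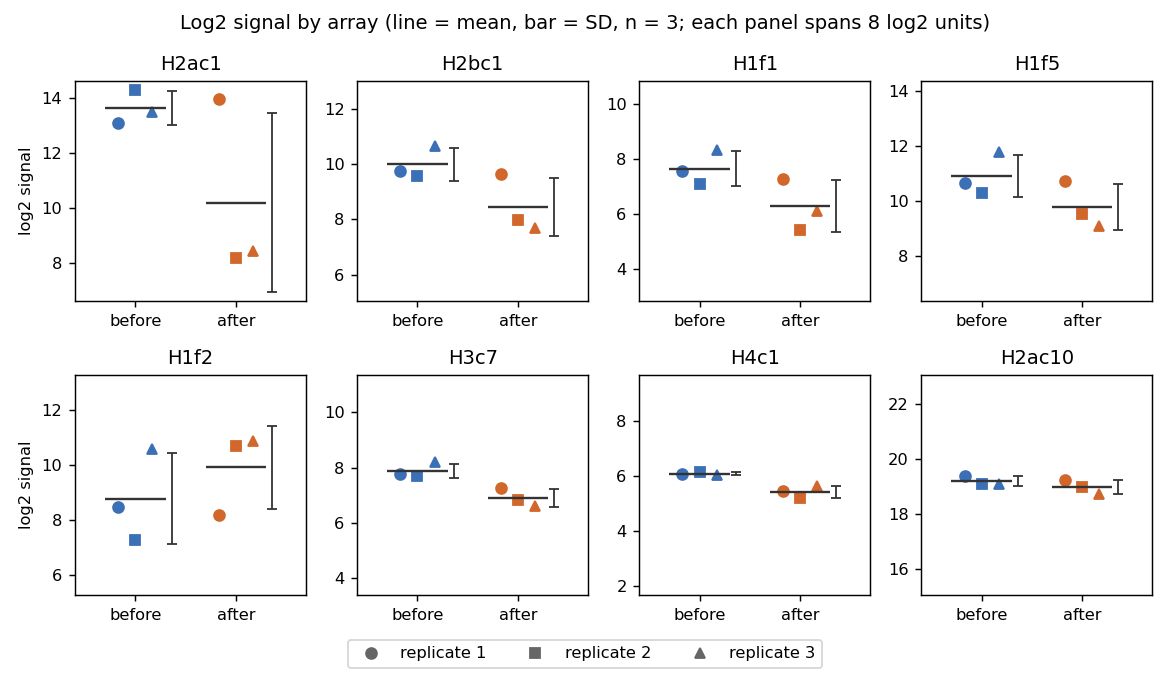
Log2 signal (y axis, each panel spanning 8 log2 units) of 8 histone genes on the 3 before arrays (blue) and the 3 after arrays (orange), with symbols by replicate number, a line for the mean and a bar for the SD (n = 3). For H2ac1 after replicate 1 stands at 13.96, among the before arrays, and the other after arrays at 8.18 and 8.43, whereas for H3c7 and H4c1 all after arrays lie below all before arrays.

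H2ac1, which encodes the testis variant TH2A and whose promoter opens the sequences above, had the lowest change of the 30 genes. Its signal was 13.07, 14.28 and 13.48 before and 13.96, 8.18 and 8.43 after. After replicate 1 was as high as the before arrays, and the other after arrays were far below them. Over all arrays the log2 change was -3.42 (SE 1.58, limma adjusted p = 0.238, exact permutation p = 0.3). Without after replicate 1 it fell by 5.31 on the log2 scale (SE 0.38, limma adjusted p = 0.0042).

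H2bc1, its divergent partner for the testis variant TH2B, split along the same arrays. It read 9.75, 9.58 and 10.67 before and 9.65, 7.98 and 7.70 after. The log2 change was -1.56 (SE 0.58, adjusted p = 0.178 by limma). Without after replicate 1 it fell by 2.16 on the log2 scale (SE 0.37, limma adjusted p = 0.0309). The 2 genes share a promoter region in the sequence printed for H2ac1, with 1 octamer, 4 CCAAT and 2 TATAAA matches in it.

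Because both are germ-line variants, 8 marker genes of male germ cells are given beside them. The mean signal over the 8 was 6.08 to 7.11 before and 6.38, 4.22 and 4.27 after, so that after replicates 2 and 3 were low as for H2ac1. In the fit to all arrays 0 of 8 passed. Without after replicate 1, 3 of 8 were lower by limma, beside 7.49% of all genes, namely Ddx4, an RNA helicase of germ cells, Dazl, an RNA-binding protein of germ cells, and Sycp3, a protein of the meiotic chromosome axis, all named after their values were seen. The late spermatid genes Tnp1 and Prm1 and the sperm genes Acr and Tex101 were below the background level in both groups, while the late spermatid gene Prm2 stood just above it, at means of 4.62 before and 4.42 after. The same 2 after arrays were low over the 10 naive pluripotency genes. Of these, 8 were lower and 0 higher by limma without after replicate 1, beside 7.49% and 7.81% of all genes. The parts of germ-cell-like RNA and of pluripotent-cell RNA in the values of H2ac1 and H2bc1 were not tested.

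Among the other H2A genes the largest difference was that of H2ac21, a member on chromosome 3. It read 9.77, 8.61 and 10.64 before and 8.61, 7.88 and 7.83 after. Before replicate 2 and after replicate 1 had almost the same signal, and the log2 change was -1.57 (SE 0.54, limma adjusted p = 0.157). H2ac20, also on chromosome 3, read 12.71, 11.37 and 12.48 before and 11.54, 11.44 and 11.06 after, a log2 change of -0.85 (SE 0.37, adjusted p = 0.224 by limma). The groups of H2ac20 overlapped only through before replicate 2.

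At the other end, H2ac19 gave 0.02 (SE 0.31), H2ac18 gave -0.21 (SE 0.32) and H2ac10 gave -0.22 (SE 0.18). H2ac18 and H2ac19 are near-identical copies, and their signals were near-parallel, from 5.06 to 6.06 and from 5.07 to 5.98 over the 6 arrays. Both were lowest on before replicate 2 and after replicate 1. The sign of each turned when single arrays were left out, with H2ac18 reading 0.08 without after replicate 1. H2ac10 read 19.40, 19.11 and 19.09 before and 19.23, 18.97 and 18.72 after. That is near the top of the scale, where the highest value in the whole table was 19.93 and 134 rows had a mean above 19. The remaining 3 H2A genes lay between -0.59 and -0.26.

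Most H2B genes carry the octamer in their promoter. All H2B genes but H2bc21 had a lower mean after pre-differentiation, against 68.3% of all genes. For those 7 of 8 genes after replicates 2 and 3 lay below all before arrays, against 42.3% of all genes. H2bc12 read 9.66, 8.63 and 9.61 before and 8.83, 7.82 and 7.14 after, a log2 change of -1.37 (SE 0.50, limma adjusted p = 0.173). After replicate 1 was above before replicate 2 and below the others.

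H2bc18, on chromosome 3, read 11.21, 10.35 and 11.66 before and 10.48, 10.14 and 9.58 after. Here too before replicate 2 reached down to the after arrays, and the log2 change was -1.01 (SE 0.40, adjusted p = 0.191 by limma). H2bc9 and H2bc22 gave log2 changes of -0.73 (SE 0.31) and -0.92 (SE 0.44). H2bc21, known as the H2BE variant of mouse olfactory neurons, read 5.04, 4.31 and 5.29 before and 4.53, 5.13 and 5.06 after, a log2 change of 0.03 (SE 0.30). After replicate 1 was the lowest of its after arrays, where it was the highest for the other 7 H2B genes.

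All 3 H3 genes had every after array below every before array, against 28.2% of all genes. H3c7 had the lowest adjusted p of the 3, with signals of 7.75, 7.69 and 8.18 before and 7.26, 6.81 and 6.59 after. After replicate 1 lay nearest to the before arrays, and before replicate 3 was the highest. The log2 change was -0.99 (SE 0.23, limma adjusted p = 0.0892, exact permutation p = 0.1). Without after replicate 1 it fell by 1.17 on the log2 scale (SE 0.21, limma adjusted p = 0.034).

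H3c8 read 7.41, 6.97 and 7.16 before and 6.87, 6.13 and 5.89 after. The gap between the lowest before and the highest after array was small, because after replicate 1 stood just under before replicate 2. Its log2 change was -0.88 (SE 0.28, adjusted p = 0.143 by limma), and without after replicate 1 it fell by 1.17 (SE 0.19, limma adjusted p = 0.0269). H3c3, whose printed promoter holds 5 CCAAT matches, read 9.32, 9.04 and 10.44 before and 8.77, 8.47 and 8.12 after, a log2 change of -1.14 (SE 0.40, limma adjusted p = 0.160). Most of the spread of H3c3 came from before replicate 3.

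The H4 genes had the tightest before arrays. H4c1 read 6.10, 6.15 and 6.03 before and 5.45, 5.21 and 5.63 after. The groups were apart and after replicate 1 lay between the other after arrays, unlike in most members. Its log2 change of -0.66 (SE 0.14, limma adjusted p = 0.0816, exact permutation p = 0.1) had the lowest adjusted p of the 30 genes. It was much the same without after replicate 1, at -0.68 (SE 0.18, adjusted p = 0.0843).

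H4c2 read 6.49, 6.43 and 6.36 before and 6.29, 5.27 and 5.31 after. After replicate 1 was just below the before arrays and the other 2 were about 1 log2 unit lower. The log2 change was -0.81 (SE 0.29, adjusted p = 0.171 by limma), and without after replicate 1 it fell by 1.14 (SE 0.13, limma adjusted p = 0.0109). A second, dimmer row of H4c2, below the background level, gave -0.22.

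Most histone copies cannot be told apart by a probe, and 35 further rows were shared by several histone genes of 1 type, 9 of H2A, 8 of H2B, 7 of H3 and 11 of H4. No gene is named from them. In the fit to all arrays 0 of 35 passed, where 0.641% of all transcript cluster rows were higher and 0.658% lower, and 8 of 35 were lower unadjusted, beside 19.1% of all those rows. The mean was lower after for 32 of 35 rows, against 74.2%. The groups were apart, with the after arrays lower, for 9 of 35, against 28.3% of all transcript cluster rows, and after replicates 2 and 3 were below all before arrays for 25, against 41.1%. The median log2 change was -0.41 for H2A rows, -0.59 for H2B rows, -0.54 for H3 rows and -0.80 for H4 rows. With after replicate 1 left out, limma called 11 of the 35 lower, 8 of them H4 rows, and 0 higher, where it called 5.39% of all transcript cluster rows lower and 4.42% higher. The lowest change was that of an H4 row shared by 13 genes, which read 9.90, 9.39 and 10.44 before and 9.27, 8.37 and 7.81 after, a log2 change of -1.43 (SE 0.44, limma adjusted p = 0.138). The brightest row of the set, shared by 10 H2A genes, read 19.48, 19.14 and 19.10 before and 19.30, 19.04 and 18.83 after, again near the top of the scale.

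**Figure D4:**
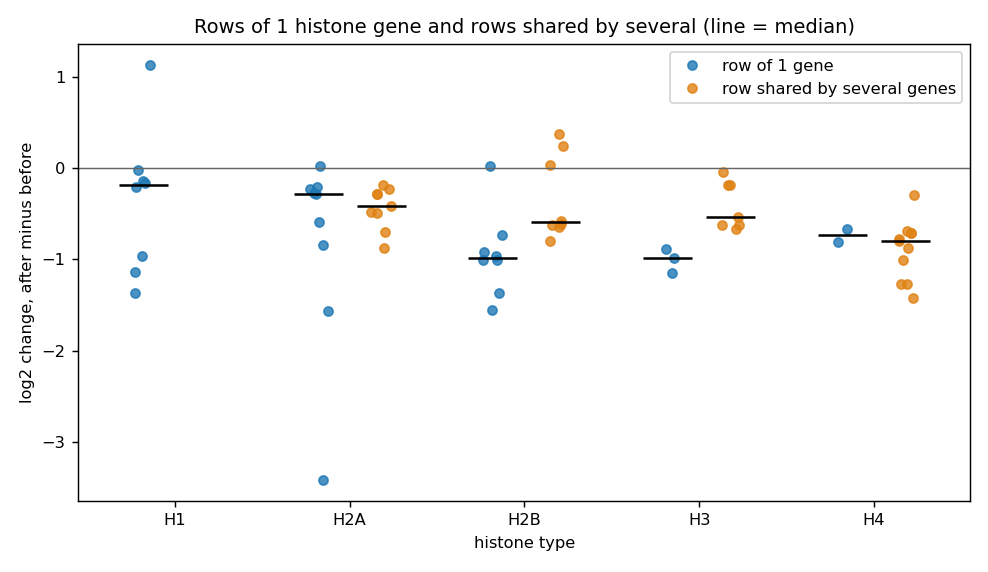
Log2 change, after minus before (y axis), by histone type for the rows of 1 histone gene (blue) and the rows shared by several genes of that type (orange), each point a row and each black line a median. In both kinds of row the H4 medians, -0.74 and -0.80, lie below those of H2A, -0.28 and -0.41.

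Genes that act with histones were set beside them from 4 lists made by function. Over the 66 measured genes of these lists, limma called 1 higher and 3 lower with all arrays, and 1 higher and 27 lower without after replicate 1. The shares of all genes were 1.23% higher and 0.651% lower with all arrays, and 7.81% and 7.49% without that one. Of the variant histones outside the rule 8 of 10 were measured, with a median log2 change of -1.11, 0 higher and 1 lower. The one that passed was H2aj, the variant H2A.J, at 8.24, 7.84 and 7.91 before and 6.78, 6.85 and 7.08 after. All its after arrays were low, after replicate 1 included, and it fell by 1.09 on the log2 scale (SE 0.16, limma adjusted p = 0.0479).

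Macroh2a1, which encodes the large variant macroH2A1, had close replicates too, with a log2 change of 0.43 (SE 0.11, limma adjusted p = 0.108) and the groups apart, and is named here after its values were seen. H2az1, which encodes the promoter-associated variant H2A.Z, gave -1.75 (SE 0.34, adjusted p = 0.0697 by limma) with the groups apart, and without after replicate 1 it fell by 2.06 (SE 0.27, limma adjusted p = 0.0161). H2ax, the variant phosphorylated at DNA breaks, gave -1.13 (SE 0.38, limma adjusted p = 0.154) and, without after replicate 1, fell by 1.51 (SE 0.27, limma adjusted p = 0.034). Cenpa, the H3 variant of centromeres, gave -2.05 (SE 0.68, limma adjusted p = 0.150). Leaving out after replicate 1, 3 of the 8 variants were called lower and 0 higher, beside 7.49% and 7.81% of all genes. The H3.3 genes H3f3a and H3f3b had no single-symbol row and were not analysed here.

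Of the genes for histone transcription and 3′ end processing 14 of 16 were measured, with a median of -0.20, near that of all genes. In either direction 0 passed. Unadjusted (p under 0.05), 3 were lower and 0 higher, beside 19.7% and 11.0% of all genes. When after replicate 1 was left out, 2 of 14 were lower, beside 7.49% of all genes. Slbp, the stem-loop binding protein, read 7.57, 7.80 and 7.74 before and 7.01, 6.55 and 6.58 after. All its after arrays were below all before arrays, with a log2 change of -0.99 (SE 0.17, limma adjusted p = 0.0554). With after replicate 1 left out Slbp fell by 1.13 on the log2 scale (SE 0.14, limma adjusted p = 0.0135). Npat, the coactivator that switches histone clusters on in S phase, gave 0.17 (SE 0.18, adjusted p = 0.567 by limma), with overlapping groups.

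Of the histone chaperones and chromatin assembly genes 18 of 22 were measured, with a median of -0.97, and 1 was higher and 1 lower. Asf1a, a chaperone of H3 and H4, fell from 11.87, 11.75 and 12.09 to 10.44, 10.28 and 10.33, by 1.55 on the log2 scale (SE 0.13, limma adjusted p = 0.0249). Rbbp7, an H4-binding subunit of several chromatin complexes, rose from 14.64, 14.86 and 14.41 to 16.10, 16.49 and 16.35, by 1.68 (SE 0.17, limma adjusted p = 0.0323). In both genes the 3 after arrays were close together, after replicate 1 included. When that array was left out, 8 of the 18 were lower and 1 higher, beside 7.49% and 7.81% of all genes. The 4 calls in these lists, H2aj, Asf1a, Rbbp7 and Tyms, were each lost on leaving out replicate 1 or 3 of the before group or replicate 2 or 3 of the after group, where no gene of the whole table was called.

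Of the DNA replication and S phase genes 26 of 28 were measured, and their median of -1.50 was further below 0 than that of the core histone genes, -0.86. The only one to pass in this fit was Tyms, the thymidylate synthase, which fell by 2.18 on the log2 scale (SE 0.30, limma adjusted p = 0.0458). Ccne1, the cyclin of S phase entry, read 11.64, 12.22 and 11.67 before and 10.88, 8.37 and 8.03 after, a log2 change of -2.75 (SE 0.76, limma adjusted p = 0.118). After replicate 1 was again the array nearest to the before group. Without it 14 of 26 were lower by limma, beside 7.49% of all genes. Mki67, the 1 gene of the list with a higher mean after, gave a log2 change of 1.098 (SE 0.57, limma adjusted p = 0.276). The before arrays were not ordered as for most histone genes, where before replicate 2 was the lowest for 23 of 30. In this list it was the highest before array for some genes, such as Ccne1, and the lowest for others, such as Tyms (11.47, 10.94 and 11.92). The part of the replication and S phase genes in the histone values was not tested.

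**Figure D5:**
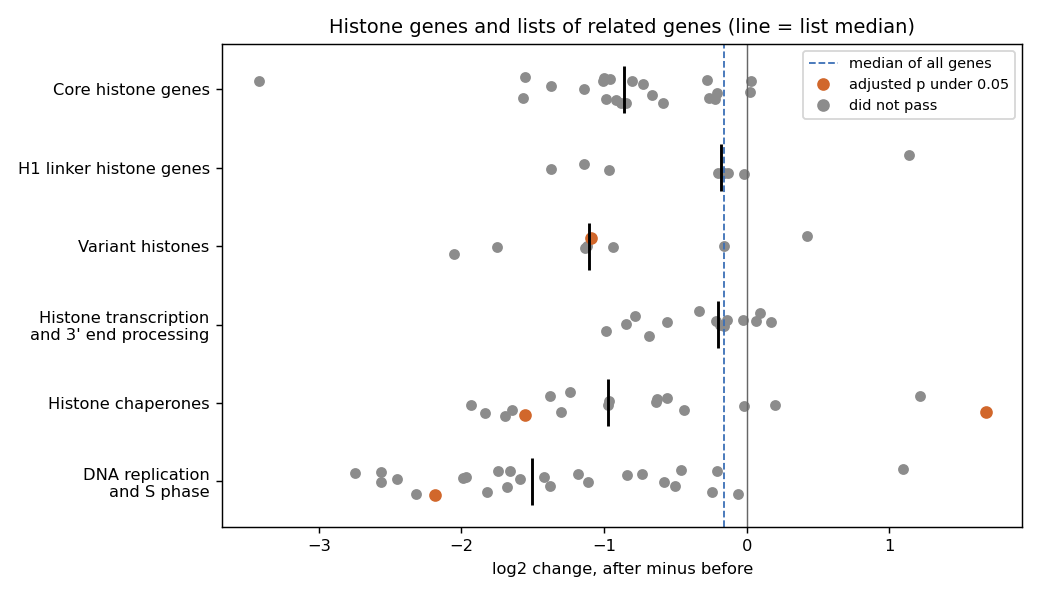
Log2 change, after minus before (x axis), of core histone genes, H1 genes and 4 lists of related genes, each point a gene, orange where the limma adjusted p was under 0.05, with black lines for list medians and a dashed line for the median of all genes, -0.16. The replication list has the lowest median, -1.50, and the 4 genes that passed, H2aj, Asf1a, Tyms and Rbbp7, are outside the histone gene families of the rule.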

How the data were processed

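RNA of 3 before and 3 after samples was measured on Clariom D arrays. The values deposited by the authors are log2 signals of 72688 rows. Per the submitters' processing notes Transcriptome Analysis Console was used, while its version and the way probes were summarized and background was removed were not given in the sources used here. Per the labels a terminal labelling kit was used, with no priming method named. Array medians were 4.17 to 4.47, and the number of arrays limits the precision. Values were used as deposited.

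The 72657 rows left without 31 AFFX controls were fitted in R 4.3.3 by lmFit and eBayes of limma 3.58.1, two-sided, and p-values were adjusted over all of them by Benjamini-Hochberg (threshold 0.05). Of the rows 30638 had 1 gene symbol and 2176 several, which name no gene, and 33142 transcript clusters had none. RefSeq updated 330 symbols. The background level, 4.24, was taken from 1381 vomeronasal and olfactory receptor genes, as the 95th percentile of their means. The rule gave 32 histone rows, and the row of Hist1h2aj, a pseudogene in RefSeq, was left out. Members and lists were chosen with earlier results of these data known. The genes named were, for each type, the 3 highest and 3 lowest changes above background, all H1 genes, and, in related lists, those that passed or had the smallest p, with a few key genes. H2bc14, H2ac12, Macroh2a1, Mki67, Klf4, Cubn and Amn fall outside this rule and were named after their values were seen.

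The methods name Student's test for other assays and none for the arrays, and it served as an alternative, called the methods' test. Other alternatives were quantile normalization, median centring, row filters, trended robust variances, the mean of a gene's rows, leaving out single arrays, and a replicate block. The model fit was first tested on simulated data.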

Additional observations from a re-analysis of the deposited data

How the results depend on the processing

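The count of histone genes called higher was 0 under every alternative run. The count called lower was 0 with all arrays except under the methods' test unadjusted (2), and it ran from 0 to 5 when single arrays were left out, the 5 being without after replicate 1. Of all genes, 371 were higher and 196 lower. These counts were 0 and 0 under the methods' test after adjustment and 2317 and 5539 unadjusted. They were 0 and 0 with the replicate number as a block, 641 and 417 over rows above background, and 137 and 30 with trended robust variances. Same-numbered arrays deviated with correlations of -0.03, 0.14 and -0.08, and some correlated better with another number. With 3 arrays per group these correlations cannot decide whether the numbers pair the arrays. Leaving out control rows gave 377 lower. Without 1 array the counts of all genes ran from 0 to 2351 and from 0 to 2255 (101 and 66 without before replicate 2). Centring gave 484 higher and 135 lower, quantile normalization 529 and 190. For the related lists, 1 higher and 3 lower became 0 and 0 under the methods' test after adjustment, 2 and 22 unadjusted, 0 and 0 with the block and with trended robust variances, 0 higher after quantile normalization and 5 lower over rows above background. Without 1 array they ran from 0 to 1 and from 0 to 27. The median of the histone genes was -0.60 after quantile normalization, -0.64 after centring, and -0.68 to -1.06 without 1 array. The sign turned for H1f10 (0.17 centred, 0.15 quantile, -0.18 to 0.13 without 1 array), H1f3 (0.023, 0.0072, and -0.62 to 0.19), H1f7 (0.049, 0.032), H2ac18 (-0.42 to 0.080 without 1 array, the latter without after replicate 1), H2ac19 (-0.26 to 0.24) and H2bc21 (-0.25 to 0.23). The cause was not tested. H2aj lost its call under centring (-0.91) and quantile normalization (-0.91), and Rbbp7 lost its call under quantile normalization. H2aj, Asf1a, Rbbp7 and Tyms each lost theirs with the block, the trended variances, the methods' test after adjustment and most arrays left out. Signals near background or near the top of the scale, and copies that share probes, limit what single rows can show.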

Other observations

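The row of Hist1h2aj, left out of the histone genes as a pseudogene, read 19.56, 19.31 and 19.21 before and 19.42, 19.23 and 18.996 after, a log2 change of -0.15 (SE 0.17, limma adjusted p = 0.590). A further 2 rows were shared by histone genes of different types, with log2 changes of -0.23 (SE 0.14) and 0.51 (SE 0.23), and neither passed.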
